A study of Mus musculus with 20 samples.

Results

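The DNA replication licensing genes described here are the 6 helicase subunits Mcm2, Mcm3, Mcm4, Mcm5, Mcm6 and Mcm7, the firing factor Mcm10, the loading factors Cdt1 and Cdc6, and Gmnn, which encodes the Cdt1 inhibitor geminin. They were chosen by name, and all 10 were found among the 23457 genes of the count files and passed the filter on low counts. Their RNA was measured in whole ovaries of 20 female mice with the Ames dwarf background, 5 mice, each with its own library, in each of 4 groups. The groups were dwarf (df/df) at 22 months, dwarf at 6 months, normal (N/df) at 22 months and normal at 6 months. Mice of the df/df genotype lack growth hormone, prolactin and thyrotropin. The normal mice carry a df allele too, so every animal had at least 1 copy. The labels give no stage of the oestrous cycle.

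A stretch of DNA may be copied only once per cell cycle, and licensing is the step that sets this. In G1 phase the origin recognition complex and Cdc6 sit on an origin and, with Cdt1, load the Mcm2 to Mcm7 ring around the DNA in an inactive form. In S phase Cdc45 and the GINS complex join the ring and Mcm10 helps to switch it on, while geminin and the breakdown of Cdt1 prevent a second round of loading. In the adult ovary the granulosa cells of growing follicles are a main dividing population, and the oocytes are arrested in meiosis and do not replicate their DNA.

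Levels are CPM, a gene's count divided by the library's summed gene counts and scaled to 1000000, and each mean stands with the SD of its 5 libraries. Changes are log2 ratios that edgeR fitted to the 20 libraries and 16099 genes together, with an SE derived from the test's F statistic. A gene counted as called where edgeR's quasi-likelihood test gave an adjusted p (Benjamini-Hochberg, over all 16099 genes) under 0.05. "Fell" and "rose" are used of called genes only. Summed gene counts were 5399377 to 13448164 per library in the dwarf 22-month group, 14224520 to 36068284 in the dwarf 6-month group, 5186090 to 20266823 in the normal 22-month group and 1365640 to 22429386 in the normal 6-month group. All 13 oocyte and all 10 granulosa markers were detected in each group.

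Among the 20 libraries, 3 stood apart from their group. Normal 6-month replicate 2 had summed granulosa markers of 170 CPM against 2546 to 4700 CPM in the other 4 libraries, luteal markers of 135 against 9666 to 12168 CPM, and oviduct markers of 5931 against 20.5 to 123 CPM. Normal 22-month replicate 3 had summed B cell markers of 981 CPM against 19.8 to 46.9 CPM in its group, and normal 6-month replicate 3 was the shallowest library. No dwarf library was among them, and no numerical cut-off set the 3 apart. Dwarf 6-month replicate 2 leaned the same way as normal 6-month replicate 2, to a lesser degree. It had the lowest oocyte (409 CPM) and granulosa (2214 CPM) sums and the highest oviduct sum (1452 CPM) of its group. Of the 40 pairs of libraries within a group, replicates 1 and 4 of the dwarf 22-month group were the most alike (chi-square per degree of freedom 2.42, against 11.6 for the next pair). The labels give them as 2 mice, and they were counted as such; with their counts summed as 1 library, 4 licensing genes were called between the ages in dwarf mice in place of 7.

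The first question was how the licensing genes differed between old and young ovaries of dwarf mice. Of the 10 genes, 7 fell and none rose: Cdt1, Mcm2, Mcm3, Mcm5, Mcm6, Mcm7 and Mcm10 were lower at 22 than at 6 months. In the same comparison 11.2% of the 16099 genes were called, 8.27% lower and 2.92% higher. The median log2 change of the 10 genes was -1.32, beside 0.0021 over all genes tested. For 9 of the 10, Gmnn being the exception, the 22-month range lay wholly below the 6-month range, as it did for 12.2% of all genes tested. In whole-ovary RNA, fewer cells of a type and less RNA per cell cannot be told apart.

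**Figure D1:**
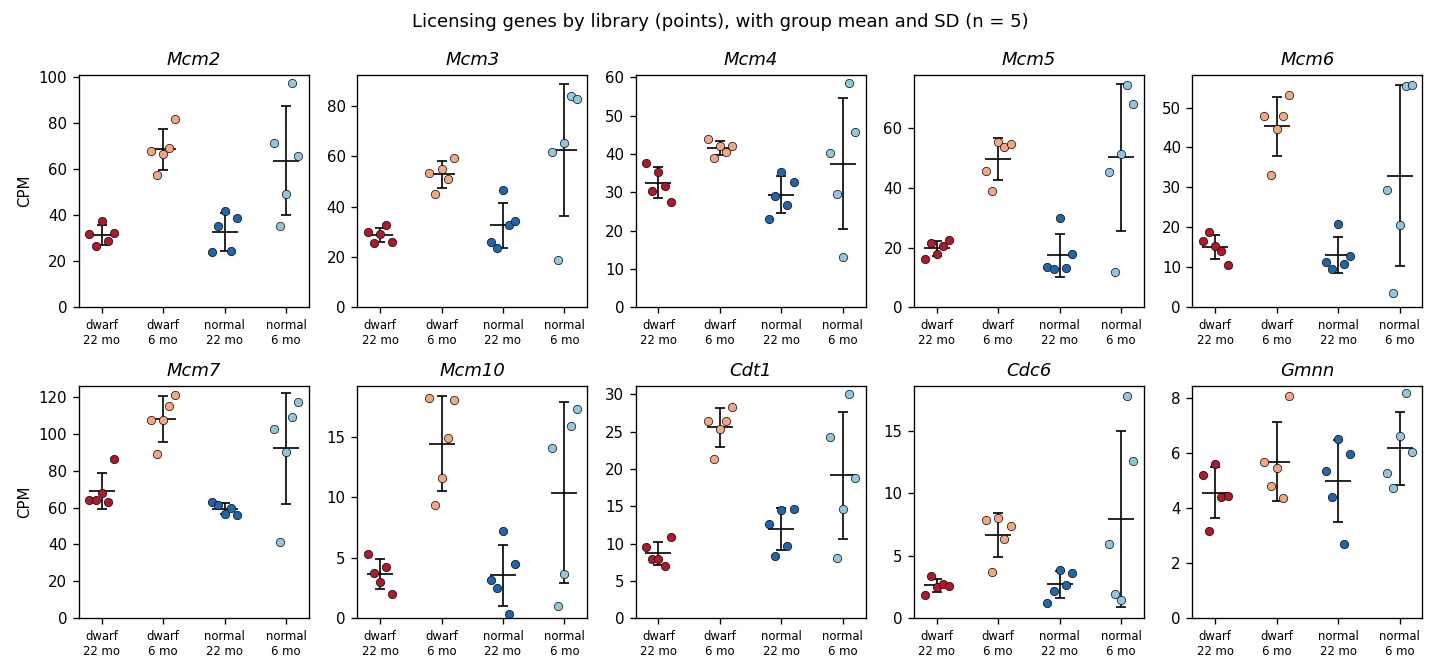
CPM of each licensing gene in each library (points), with the group mean and SD (black line and bar, n = 5), for dwarf and normal mice at 22 and 6 months. In dwarf mice 9 of the 10 genes lay wholly lower at 22 months (12.2% of all genes did), and in normal mice all 10 overlapped (1.01% of all genes lay wholly lower); the lowest normal 6-month point is replicate 2 in 8 of the 10 genes.

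Cdt1, the factor that delivers the Mcm2 to Mcm7 ring to the origin, had the firmest difference. It was at 9.59, 7.90, 7.96, 6.99 and 10.9 CPM in dwarf ovaries at 22 months, against 26.4, 21.4, 25.4, 26.4 and 28.3 CPM in dwarf ovaries at 6 months. Every old library was below every young one. The means were 8.67 ± 1.57 CPM at 22 months and 25.6 ± 2.58 CPM at 6 months (SD, n = 5 each; log2 -1.65 ± 0.266, edgeR adjusted p = 0.00141).

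Among the helicase subunits, Mcm6 had the largest fall. It stood at 16.6, 18.8, 15.2, 14.1 and 10.6 CPM in dwarf ovaries at 22 months, against 47.8, 33.2, 44.7, 47.9 and 53.1 CPM at 6 months (log2 -1.68 ± 0.442, edgeR adjusted p = 0.0212). Mcm5 stood at 16.4, 21.6, 17.9, 20.5 and 22.6 CPM at 22 months, against 45.8, 39.1, 55.5, 53.9 and 54.6 CPM at 6 months (log2 -1.42 ± 0.345, edgeR adjusted p = 0.0142). Every old library was below every young one for both genes. Mcm2, which carries a histone-binding tail, stood at 31.7, 26.5, 37.6, 28.8 and 32.4 CPM at 22 months, against 68.0, 57.3, 66.5, 69.4 and 82.0 CPM at 6 months (log2 -1.22 ± 0.223, edgeR adjusted p = 0.00325). Mcm3 averaged 28.7 ± 2.90 CPM at 22 months and 52.7 ± 5.23 CPM at 6 months (SD, n = 5 each; log2 -0.96 ± 0.281, edgeR adjusted p = 0.0332). These 2 genes had no overlap between the ages either.

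Mcm7 and Mcm4 differed less. Mcm7 stood at 64.2, 63.9, 67.8, 63.0 and 86.5 CPM in dwarf ovaries at 22 months, against 107, 88.8, 107, 115 and 121 CPM at 6 months (log2 -0.73 ± 0.200, edgeR adjusted p = 0.0250). Replicate 5 of the 22-month group came within a few CPM of the lowest 6-month library. Mcm4 did not pass the test, at 32.5 ± 4.07 CPM at 22 months and 41.5 ± 1.91 CPM at 6 months (SD, n = 5 each; log2 -0.44 ± 0.219, edgeR adjusted p = 0.196), although its ranges did not overlap.

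Mcm10, the factor that acts when licensed origins fire, had the largest fold change of the 10 genes and one of the lower levels. It stood at 5.33, 3.75, 2.97, 4.21 and 2.04 CPM in dwarf ovaries at 22 months, against 18.2, 9.38, 11.6, 14.9 and 18.1 CPM at 6 months (log2 -2.07 ± 0.600, edgeR adjusted p = 0.0325). Cdc6, the ATPase that works with the origin recognition complex, averaged 2.62 ± 0.536 CPM at 22 months and 6.67 ± 1.77 CPM at 6 months (SD, n = 5 each) and just missed the threshold (log2 -1.43 ± 0.490, edgeR adjusted p = 0.0643). Gmnn, whose protein blocks Cdt1 after licensing is done, was at 3.16 to 5.58 CPM at 22 months and 4.36 to 8.07 CPM at 6 months, with overlapping ranges (log2 -0.41 ± 0.266, edgeR adjusted p = 0.318).

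How many genes were called in dwarf mice depended on single libraries. With any 1 of the 10 dwarf libraries left out, 4 genes were called, except that 3 were called without 22-month replicate 4 or 6-month replicate 5, and 7 without 6-month replicate 2. Cdt1, Mcm2 and Mcm5 were called in all 10 of these fits, Mcm6 in 7, Mcm7 in 2, and Mcm3 and Mcm10 in 1 each. All 10 genes had negative fold changes in each of them. Over all genes, 802 to 1681 were called in these fits, against 1802 with all libraries.

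In normal mice the same comparison of 22 with 6 months gave lower values of the same 10 genes with more scatter among the young animals. Mcm2, Mcm3 and Mcm5 fell, none of the 10 rose, and the median log2 change was -0.97, beside -0.017 over all genes tested. In this comparison 6.75% of the 16099 genes were called, 4.14% lower and 2.6% higher. All 10 genes had overlapping ranges, and 1.01% of all genes tested had a 22-month range wholly below the 6-month one. Normal 6-month replicate 2 was the lowest library of its group in 8 of the 10.

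Mcm5 stood at 13.7, 12.8, 29.8, 13.3 and 17.8 CPM in normal ovaries at 22 months, against 45.3, 12.0, 51.3, 74.5 and 68.2 CPM at 6 months (log2 -1.54 ± 0.348, edgeR adjusted p = 0.0150). The second young library, which is replicate 2, was below all 5 old ones, and the other 4 young libraries were above all of them. Mcm2 stood at 24.0, 35.3, 42.0, 24.3 and 38.7 CPM at 22 months, against 71.5, 35.3, 49.1, 97.3 and 65.6 CPM at 6 months (log2 -0.97 ± 0.223, edgeR adjusted p = 0.0159). Mcm3 stood at 26.0, 23.4, 46.6, 32.6 and 34.2 CPM at 22 months, against 61.6, 18.9, 65.2, 83.9 and 82.7 CPM at 6 months (log2 -0.97 ± 0.282, edgeR adjusted p = 0.0451). For both genes the 4 young libraries other than replicate 2 were above the old range.

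The remaining 7 genes missed the threshold in normal mice. Mcm7 averaged 59.4 ± 3.08 CPM at 22 months and 92.1 ± 30.0 CPM at 6 months (SD, n = 5 each; log2 -0.66 ± 0.201, edgeR adjusted p = 0.0527). Cdt1 stood at 12.6, 8.33, 14.5, 9.64 and 14.6 CPM at 22 months, against 24.3, 8.01, 14.6, 30.0 and 18.8 CPM at 6 months (log2 -0.70 ± 0.261, edgeR adjusted p = 0.113). For Cdt1 replicate 2 was below the old range and the other 4 young libraries were above it, replicate 3 by less than 0.1 CPM. Mcm6, Mcm10, Cdc6, Mcm4 and Gmnn had log2 changes between -1.58 and -0.31, with edgeR adjusted p-values between 0.0572 and 0.521. Low counts stood behind some of these values: Cdc6 had 2 counts and Mcm10 5 in normal 6-month replicate 3, and Mcm10 had 2 in normal 22-month replicate 4.

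Without normal 6-month replicate 2, 8 of the 10 genes were called lower in normal mice, all but Mcm4 and Gmnn. In that fit 10% of all genes were called lower. The 22-month range then lay wholly below the 6-month range for 5 genes (Mcm2, Mcm3, Mcm5, Mcm7 and Cdt1), and for 5.22% of all genes. In the fit without replicate 2 Mcm5 had a log2 change of -1.75 ± 0.234 (edgeR adjusted p = 5.8e-05) and Cdt1 one of -0.86 ± 0.203 (edgeR adjusted p = 0.00413). Without all 3 libraries that stood apart, 9 genes were called in dwarf mice and 9 in normal mice, all but Gmnn. In that fit 15.4% of all genes were called lower in dwarf mice and 12.9% in normal mice. When the spread was estimated from the 10 normal libraries alone, none of the 10 genes was called, and none of all the genes tested was. With the dwarf libraries alone, 9 of the 10 genes were called lower in dwarf mice, beside 18.2% of all genes. Leaving out any single normal library other than 6-month replicate 2 gave 2 or 3 calls. In those fits 2.05% to 4.61% of all genes were called lower.

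**Figure D2:**
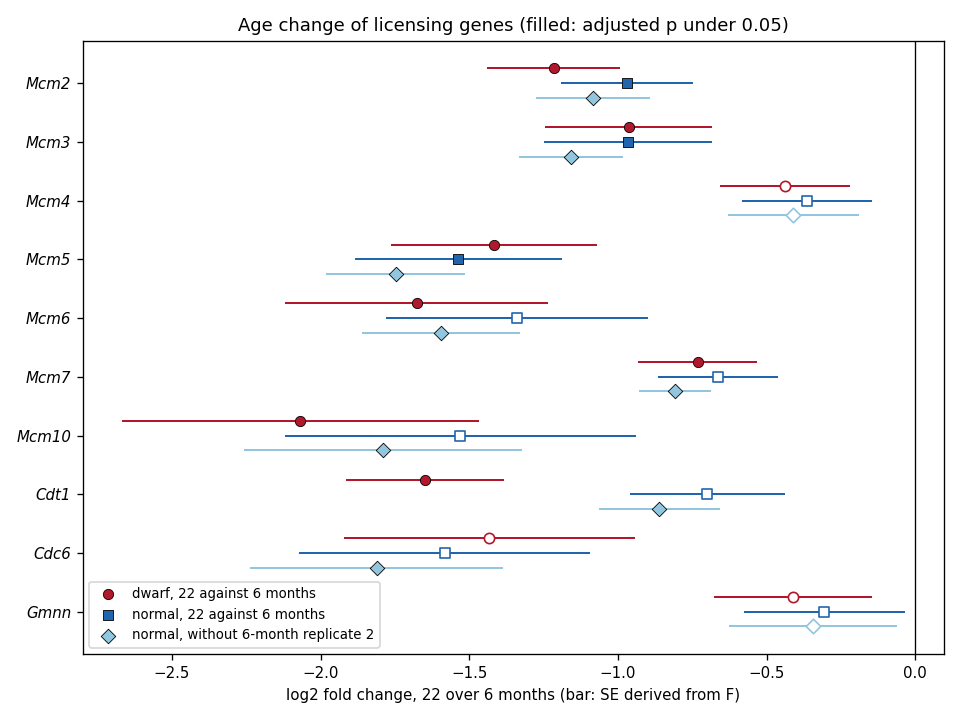
Log2 fold change of each licensing gene, 22 over 6 months, in dwarf mice, in normal mice, and in normal mice without 6-month replicate 2 (horizontal bars: SE derived from F; filled symbols: edgeR adjusted p under 0.05). All points lie below 0, and 7, 3 and 8 of the 10 are filled, in that order.

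The second question was whether dwarf and normal ovaries of 1 age differed in these genes. None of the 10 was called in edgeR at 6 months, where 4.57% of all genes were called (2.27% higher and 2.3% lower in dwarf mice), or at 22 months, where 3.81% were (1.96% higher and 1.86% lower). At an unadjusted edgeR p under 0.05 there was no gene at 6 months and 1 at 22 months, Cdt1. Over all 16099 genes, 2969 had such a p at 6 months and 2894 at 22 months. DESeq2 called none at either age, beside 8.78% of all genes at 6 months and 7.46% at 22 months. Limma voom called none at 6 months and Cdt1 alone at 22 months, beside 11.6% and 14.2% of all genes. All 10 genes had overlapping ranges at both ages, whereas 5.88% of all genes had separate ranges at 6 months and 7.24% at 22 months.

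Cdt1 averaged 8.67 ± 1.57 CPM in dwarf ovaries and 11.9 ± 2.84 CPM in normal ovaries at 22 months (SD, n = 5 each; log2 -0.56 ± 0.262, edgeR adjusted p = 0.265). With limma voom the difference was -0.68 on the log2 scale (adjusted p = 0.0354). At 6 months it averaged 25.6 ± 2.58 CPM in dwarf ovaries and 19.1 ± 8.49 CPM in normal ovaries (SD, n = 5 each; log2 0.39 ± 0.259, edgeR adjusted p = 0.460). The 6-month log2 differences of the other 9 genes lay between -0.30 and 0.44, and the 22-month ones between -0.28 and 0.13. Mcm3 was the exception to the count at 6 months: without the 3 libraries that stood apart it was lower in dwarf ovaries (log2 -0.49, edgeR adjusted p = 0.0316). With SEs of 0.20 to 0.59 at either age, differences of the size seen here could not be resolved.

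Whether the age difference itself depended on genotype was tested as an interaction. No licensing gene was called in edgeR, and neither was any of the 16099 genes (0%), of which 1127 had an unadjusted p under 0.05. DESeq2 and limma voom also called none of the 10, beside 17 and 9 of all genes. The widest gap was that of Cdt1, whose log2 change with age was 0.95 ± 0.368 more negative in dwarf than in normal mice (edgeR unadjusted p = 0.0182, adjusted p = 0.623). The other 9 interaction terms were between -0.54 and 0.15, with SEs between 0.28 and 0.82. The 7 calls in dwarf mice and 3 in normal mice are therefore not shown to differ.

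Since the 6 helicase subunits act in a ring with 1 copy of each, their levels per length were compared. Mcm7 was the most abundant of the 10 genes in all 4 groups, at 28.8 ± 4.13 CPM per kilobase of exon in dwarf mice at 22 months, 45.1 ± 5.11 in dwarf mice at 6 months, 24.8 ± 1.29 in normal mice at 22 months and 38.4 ± 12.5 in normal mice at 6 months (SD, n = 5 each). It was the highest subunit in each of the 20 libraries. Mcm2 and Mcm3 came next by mean level in every group, and they did not differ beyond their spread. Mcm10 and Cdc6 held ranks 9 and 10 in every group, with Cdc6 at 0.558 ± 0.114 CPM per kilobase in dwarf mice at 22 months, 1.42 ± 0.376 in dwarf mice at 6 months, 0.580 ± 0.233 in normal mice at 22 months and 1.69 ± 1.50 in normal mice at 6 months. The places between changed with age: in dwarf mice Mcm4 held rank 4 at 22 months and rank 7 at 6 months, whereas Mcm6 held rank 6 at 22 months and rank 4 at 6 months.

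The summed level of the 6 subunits was 68.1 ± 3.19 CPM per kilobase in dwarf ovaries at 22 months and 125 ± 13.8 at 6 months, and 63.6 ± 8.66 in normal ovaries at 22 months and 115 ± 44.8 at 6 months (SD, n = 5 each). The proportions of the subunits were not the same at both ages in dwarf mice. Mcm7 made up 42.2 ± 4.25% of the sum in dwarf ovaries at 22 months and 35.9 ± 0.660% at 6 months, and Mcm4 made up 13.3 ± 1.82% at 22 months and 9.29 ± 0.858% at 6 months. Mcm6 made up 7.68 ± 1.82% in dwarf ovaries at 22 months and 12.4 ± 0.823% at 6 months, and Mcm5 made up 8.51 ± 1.16% at 22 months and 11.6 ± 0.857% at 6 months. None of these 4 shares overlapped between the ages in dwarf mice, whereas those of Mcm2 and Mcm3 did. In normal mice the mean shares of Mcm7, Mcm4, Mcm6 and Mcm5 lay on the same sides, but every range overlapped. The lowest subunit was Mcm5 or Mcm6 in all 5 dwarf libraries at 22 months, Mcm4 in all 5 at 6 months, Mcm6 in all 5 normal libraries at 22 months, and Mcm4 or Mcm6 in the 5 normal libraries at 6 months.

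**Figure D3:**
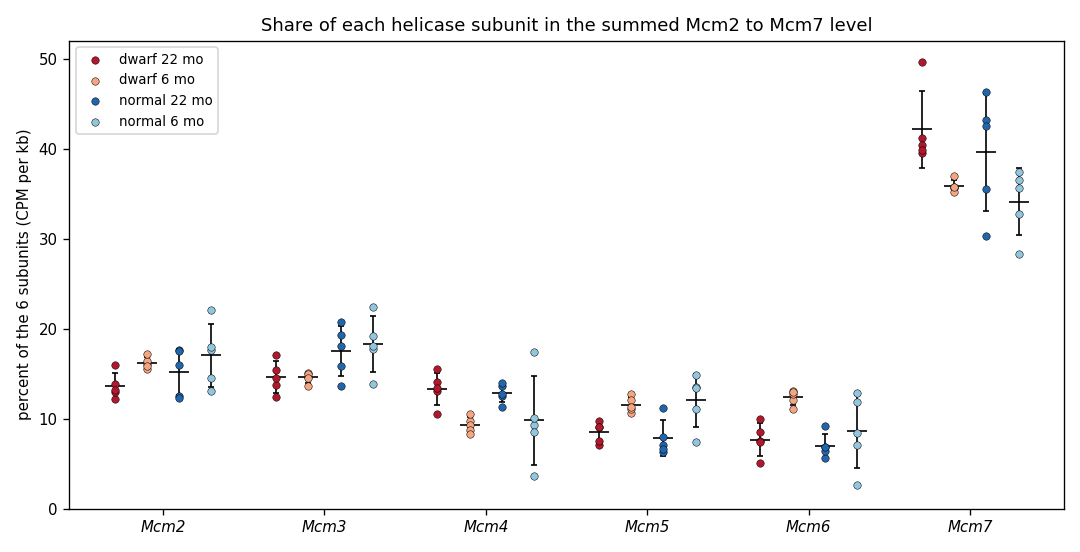
Share of each helicase subunit in the summed CPM per kilobase of Mcm2 to Mcm7, by library (points) with the group mean and SD (n = 5). In dwarf mice the 22-month points of Mcm7 and Mcm4 lie above the 6-month points and those of Mcm5 and Mcm6 below them.

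Cdt1 and its inhibitor Gmnn were also set against each other per length. The ratio of Cdt1 to Gmnn was 0.876 ± 0.220 in dwarf ovaries at 22 months and 2.08 ± 0.405 at 6 months (SD, n = 5 each), and its range of 0.636 to 1.11 at 22 months did not overlap that of 1.57 to 2.70 at 6 months. In normal ovaries it was 1.12 ± 0.282 at 22 months and 1.37 ± 0.516 at 6 months, with overlap. Gmnn has a short transcript (977 bases), with 14 counts in the shallowest 22-month normal library and 9 in the shallowest 6-month one. The ratio in those 2 libraries is therefore imprecise.

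The promoters of the licensing genes were read for binding motifs of the E2F factors, which in proliferating cells switch on genes needed for S phase, among them Mcm genes, Cdc6 and Cdt1. RefSeq promoter windows (build GRCm38.p6, 250 bases before to 50 after the start) were at hand for 8 of the 10 genes, all but Mcm4 and Gmnn. An E2F 8-mer (TTTCCCGC, TTTCGCGC, TTTGCCGC or TTTGGCGC, on either strand) was present in 6 of these 8 (75%) and in 704 of 27025 genes with a window of the same length (2.60%). The windows below are 101 bases each, in the direction of the gene, and capitals mark the E2F 8-mers. Mcm5 and Mcm6 have overlapping matches on both strands, Mcm6 has 3 in all, and Mcm3 has 2 just after the start. Mcm7 has a further match 165 bases before the start, outside the stretch printed, and its second RefSeq promoter has none. In the deposited mm10 annotation Mcm7 spans chr5:138164589-138171862, with the microRNA genes Mir25, Mir93 and Mir106b inside an intron. The 2 genes without a window span chr16:15623897-15637400 (Mcm4) and chr13:24751845-24761937 (Gmnn), both on the minus strand.
Mcm3 (chr1:20820263-20820363, minus strand): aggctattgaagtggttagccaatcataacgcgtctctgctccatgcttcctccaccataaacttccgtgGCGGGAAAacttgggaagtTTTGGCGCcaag
Mcm5 (chr8:75109312-75109412, plus strand): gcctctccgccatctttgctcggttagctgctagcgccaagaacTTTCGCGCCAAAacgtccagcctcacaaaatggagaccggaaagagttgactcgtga
Mcm6 (chr1:128359730-128359830, minus strand): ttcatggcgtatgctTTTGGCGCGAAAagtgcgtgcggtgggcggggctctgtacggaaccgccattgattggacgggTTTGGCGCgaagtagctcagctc
Mcm7 (chr5:138171834-138171934, minus strand): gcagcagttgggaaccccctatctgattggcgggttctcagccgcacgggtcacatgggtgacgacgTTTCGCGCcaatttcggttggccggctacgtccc
Cdt1 (chr8:122567964-122568064, plus strand): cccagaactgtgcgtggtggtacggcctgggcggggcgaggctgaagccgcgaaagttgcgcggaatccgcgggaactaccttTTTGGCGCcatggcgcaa
Cdc6 (chr11:98907967-98908067, plus strand): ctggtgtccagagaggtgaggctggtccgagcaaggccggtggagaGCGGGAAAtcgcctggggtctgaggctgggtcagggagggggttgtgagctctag

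Mcm2 and Mcm10, which fell in dwarf mice, are shown because neither window holds a whole one of these 8-mers. Of the genes printed above, Cdc6 was not called in dwarf mice (edgeR adjusted p = 0.0643). The Mcm10 window ends on TTTGGCG, which is the 8-mer TTTGGCGC without its last letter. Whether a match crosses the end of that window cannot be read from it. Mcm2 has a CCAAT box 175 bases and Mcm10 has CCAAT boxes 98 and 23 bases before and 31 bases after the start. The 101 bases printed run from 51 before to 49 after the start.
Mcm2 (chr6:88898731-88898831, minus strand): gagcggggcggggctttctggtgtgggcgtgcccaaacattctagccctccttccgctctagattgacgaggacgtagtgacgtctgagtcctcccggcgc
Mcm10 (chr2:5012742-5012842, minus strand): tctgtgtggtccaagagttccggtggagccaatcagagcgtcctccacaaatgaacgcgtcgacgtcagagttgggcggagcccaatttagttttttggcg
CCAAT or its reverse ATTGG was in 6 of the 8 licensing windows and in 41.1% of all genes, and some of these letters overlap an E2F match (Mcm7). For comparison, the 6 mitosis genes Mki67, Top2a, Cdk1, Ccnb1, Aurka and Bub1 held an E2F 8-mer in 1, a CCAAT box in 6 and a CHR (TTTGAA or TTCGAA on either strand) in 5. The CHR was in 2 of the 8 licensing windows (Mcm2 and Mcm7) and in 21.7% of all genes. A match describes the letters only.

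The licensing genes were then set beside the other genes of the replication pathway, taken from lists written from general knowledge. The share to hold beside each list is that of all genes called lower, 8.27% in dwarf mice and 4.14% in normal mice. Of the 6 origin recognition genes, which encode the platform that licensing starts from, Orc1 fell in dwarf mice and the other 5 did not pass in either genotype. Orc1 averaged 2.26 ± 0.683 CPM in dwarf ovaries at 22 months and 5.30 ± 0.683 CPM at 6 months (SD, n = 5 each; log2 -1.30 ± 0.345, edgeR adjusted p = 0.0213), and it was called in 5 of the 10 fits that left out 1 dwarf library. In normal mice its log2 change was -0.98 ± 0.346 (edgeR adjusted p = 0.0954). Orc2, Orc3, Orc4, Orc5 and Orc6 had log2 changes between -0.25 and 0.36 in dwarf mice and between -0.66 and -0.02 in normal mice. The list median was -0.071 in dwarf mice and -0.17 in normal mice, beside -1.32 and -0.97 for the licensing genes.

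Of 13 genes that turn the loaded ring into a moving helicase, 5 fell in dwarf mice and 2 in normal mice, and none rose. Cdc45, the ring's partner in the active helicase, averaged 6.88 ± 0.719 CPM in dwarf ovaries at 22 months and 13.8 ± 1.63 CPM at 6 months (SD, n = 5 each; log2 -1.09 ± 0.262, edgeR adjusted p = 0.0132), and its log2 change in normal mice was -0.92 ± 0.263 (edgeR adjusted p = 0.0415), a call made in 4 of the 10 fits with 1 normal library left out. Recql4, a helicase involved in origin firing, fell in dwarf mice (log2 -1.58 ± 0.330, edgeR adjusted p = 0.00626). Dbf4, the activating subunit of the Cdc7 kinase, and the GINS subunit Gins3 fell there too, by 1.49 and 1.31 on the log2 scale, but each was called in 2 of the 10 fits with 1 dwarf library left out.

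Of 11 genes that control licensing, 4 fell in dwarf mice and 2 in normal mice, and none rose with age. Skp2, a subunit of a ubiquitin ligase that acts on Cdt1, fell in both (log2 -1.29 ± 0.311 in dwarf mice, edgeR adjusted p = 0.0134, and -1.43 ± 0.314 in normal mice, edgeR adjusted p = 0.0132). Ccna2, the cyclin of S phase and G2, also fell in both, by 1.62 in dwarf mice and 1.61 in normal mice on the log2 scale. Dtl, the adaptor that directs Cdt1 to breakdown in S phase, had wide errors and was not called (log2 -1.78 ± 0.655 in dwarf mice, edgeR adjusted p = 0.0843). Fzr1, the APC/C activator of G1, averaged 74.9 ± 6.93 CPM in dwarf ovaries at 22 months and 109 ± 7.34 CPM at 6 months (SD, n = 5 each; log2 -0.62 ± 0.106, edgeR adjusted p = 0.00207). At 6 months it was higher in dwarf than in normal ovaries, where it averaged 80.8 ± 17.2 CPM (log2 0.40, edgeR adjusted p = 0.0380). That call was lost with limma voom (adjusted p = 0.0544), with only the 6-month groups in the edgeR fit (adjusted p = 0.206), without the 3 libraries that stood apart (adjusted p = 0.0557), and without dwarf replicate 2 or 5 or normal replicate 5 (adjusted p = 0.0802 to 0.0934).

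Further along the pathway, 7 of 26 DNA synthesis genes fell in dwarf mice and 3 in normal mice. Timeless, of the fork protection complex, fell in both (log2 -1.54 ± 0.317 in dwarf mice and -1.15 ± 0.316 in normal mice, edgeR adjusted p = 0.00590 and 0.0348). Pcna, the sliding clamp, was at 48.5 ± 5.44 CPM in dwarf ovaries at 22 months and 57.5 ± 5.36 CPM at 6 months and was not called (log2 -0.33 ± 0.180, edgeR adjusted p = 0.236), while in normal mice it fell (log2 -0.64 ± 0.181, edgeR adjusted p = 0.0390). With 1 normal library left out, Timeless was called in 3 and Pcna in 4 of the 10 fits of normal mice. Of 6 nucleotide supply genes, 2 fell in dwarf mice (Dut and Rrm2) and 1 in normal mice (Dut). Of 20 genes of G1/S control, 2 fell in dwarf mice (Cdk4 and E2f1), near the 8.27% of all genes called lower there. In normal mice 5 of the 20 fell, beside 4.14% of all genes. E2f1 was at log2 -1.30 ± 0.342 in dwarf mice and -1.46 ± 0.347 in normal mice (edgeR adjusted p = 0.0211 and 0.0182). With 1 library left out, E2f1 was called in 6 of 10 fits in dwarf mice and 9 of 10 in normal mice, and Dut in 10 and 3. No gene of these lists rose in either genotype.

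Of these lists the mitosis genes had the lowest medians, -1.95 in dwarf mice and -1.70 in normal mice, and 4 of its 6 genes fell in dwarf mice and 3 in normal mice. Cdk1, the mitotic kinase, averaged 7.74 ± 2.95 CPM in dwarf ovaries at 22 months and 33.6 ± 8.45 CPM at 6 months (SD, n = 5 each; log2 -2.20 ± 0.362, edgeR adjusted p = 0.00148). Mki67, the widely used proliferation marker, was not called (log2 -1.32 ± 0.667, edgeR adjusted p = 0.203, in dwarf mice). The Mcm relatives that work outside licensing were not called in either genotype. Mcm8 and Mcm9, which act in recombination, and Mcmdc2, which acts in meiotic recombination, had log2 changes between -0.44 and -0.12 in dwarf mice and between -0.43 and 0.30 in normal mice. In dwarf mice the change of Mcmdc2 (-0.44 ± 0.287) was of the size of those of Mcm4 (-0.44 ± 0.219) and Gmnn (-0.41 ± 0.266). Those 2 licensing genes were not called either, so the relatives are not set apart from them. Most genes named from the lists were chosen for a small p in these same comparisons, so the number of them called is no result about the lists. Of the 21 named genes called in dwarf mice, 12 were called in every fit with 1 dwarf library left out. Of the 14 called in normal mice, 5 were called in every fit with 1 normal library left out.

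**Figure D4:**
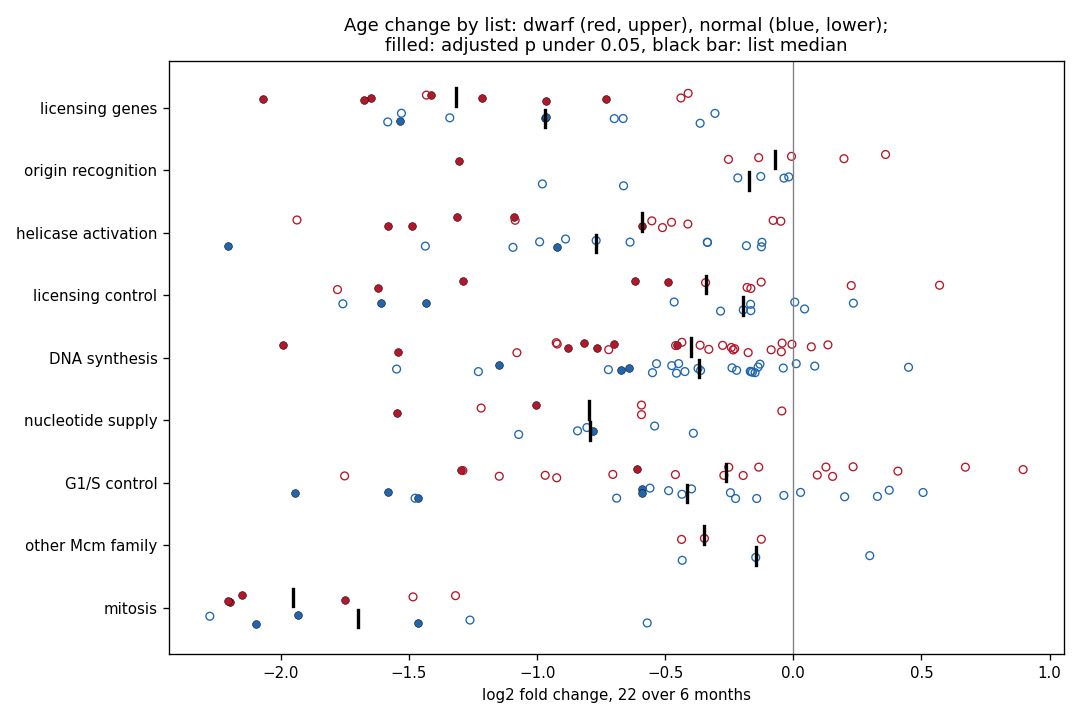
Log2 fold change, 22 over 6 months, of each tested gene of the licensing group and of 8 lists of replication and division genes, in dwarf mice (red, upper) and normal mice (blue, lower). Filled points have an edgeR adjusted p under 0.05 and black bars are list medians; the licensing genes and the mitosis list have the medians farthest to the left, and 5 of the 6 origin recognition genes lie between -0.25 and 0.36 in dwarf mice.

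The pattern of the helicase subunits over the 20 libraries was also compared with that of every gene with at least 1 CPM on average. The measure was the root mean square difference of log2 CPM, each gene centred on its own mean, from the mean profile of Mcm2 to Mcm7, over 15134 genes. The 8 closest genes outside the licensing group were Umps (0.220), Ccdc82 (0.228), Lmnb1 (0.231), Pitrm1 (0.247), Cdc45 (0.253), Slc38a2 (0.254), Dnmt1 (0.255) and Chaf1a (0.265). Mcm3 (0.227), Mcm2 (0.231) and Mcm7 (0.269), which are part of that profile, were about as close. Cdt1 (0.313) and Mcm5 (0.321) ranked 43 and 51, and Mcm6, Mcm4, Gmnn and Cdc6 lay between 0.477 and 0.537. Mcm10 was farthest of the 10, at 0.886. The measure rewards a like size of change as well as a like order.

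Summed oocyte and granulosa markers were lower at 22 months in dwarf ovaries, with no overlap between the ages. In dwarf ovaries the 13 oocyte markers summed to 62.0 to 98.5 CPM at 22 months and 409 to 603 CPM at 6 months, and 10 of the 13 fell. The 10 granulosa markers summed to 1006 to 2124 CPM at 22 months and 2214 to 3676 CPM at 6 months. Inha alone made up most of that sum, on average 1017 of 1617 CPM at 22 months and 1949 of 3072 CPM at 6 months. Among single genes, 12.2% of all tested lay wholly lower at 22 months in dwarf mice. Of the 10 granulosa markers, 1 fell in dwarf mice and 1 in normal mice, beside 8.27% and 4.14% of all genes called lower. In normal ovaries the oocyte markers summed to 7.56 to 49.0 CPM at 22 months and 5.68 to 521 CPM at 6 months, where 11 of 13 fell, and the granulosa markers summed to 376 to 1630 CPM at 22 months and 170 to 4700 CPM at 6 months. Normal 6-month replicate 2 was the lowest library for both marker sums and, at 47.3 CPM per kilobase, for the summed Mcm2 to Mcm7 level. Normal 22-month replicate 3, with its 981 CPM of B cell markers, was the highest of its group in 8 of the 10 licensing genes. The part of these cell types in the licensing result was not tested.

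**Figure D5:**
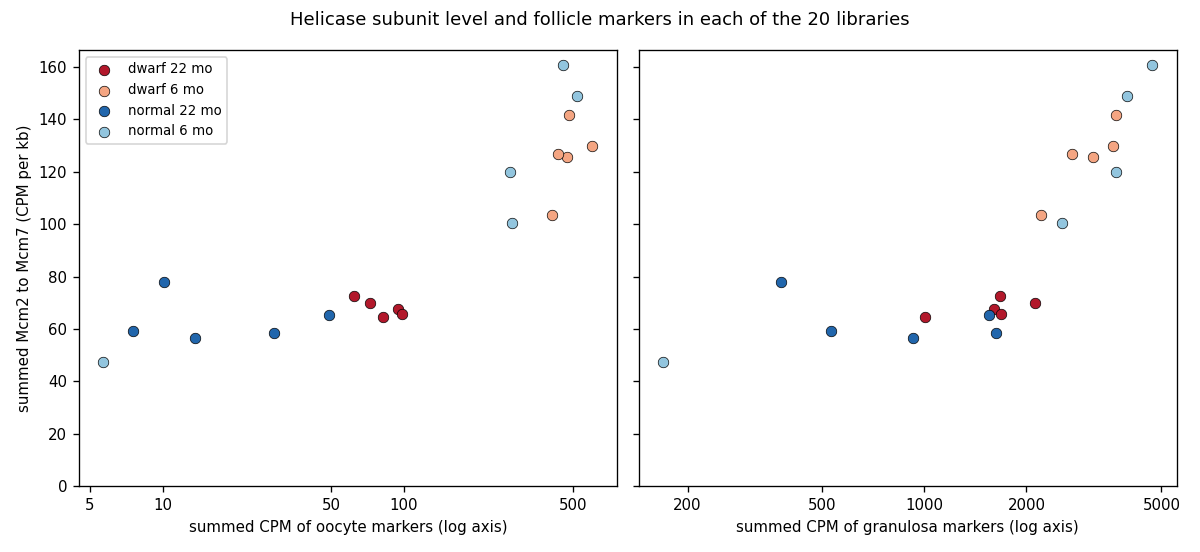
Summed Mcm2 to Mcm7 level (CPM per kilobase) against the summed CPM of 13 oocyte markers (left) and 10 granulosa markers (right, both log axes) in each of the 20 libraries. The 9 libraries at or above 100 CPM per kilobase are all from 6-month mice; the remaining 6-month library is normal replicate 2, at 47.3 CPM per kilobase and the lowest marker sum in both panels.

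Oviduct marker sums were higher at 22 months in dwarf mice, with no overlap. Ovgp1 alone averaged 2069 of the 2594 CPM mean sum in dwarf ovaries at 22 months. The sum was 1949 to 3454 CPM in dwarf ovaries at 22 months and 26.0 to 1452 CPM at 6 months, and 1551 to 3755 CPM in normal ovaries at 22 months and 20.5 to 5931 CPM at 6 months, although none of the 6 markers was called in either genotype. A fit with the mean log2 level of these markers as a covariate cannot tell age from oviduct level in dwarf mice, where the sums separate the ages. The part of oviduct tissue in the calls was not tested. In that fit Cdt1 and Mcm2 were called in dwarf mice (log2 -1.26 ± 0.243 and -0.86 ± 0.205, edgeR adjusted p = 0.0107 and 0.0331). No licensing gene was called in normal mice. Over all genes, the share called lower in this fit was 1.47% in dwarf mice and 0% in normal mice. The other 5 genes called in the main fit of dwarf mice were not called here. Their log2 changes were -0.44 for Mcm3, -0.77 for Mcm5, -0.90 for Mcm6, -0.35 for Mcm7 and -1.36 for Mcm10. All 10 log2 changes stayed negative in dwarf mice with this covariate, and 9 of 10 in normal mice, where Gmnn was at 0.09.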

How the data were processed

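Counts of reads per gene were deposited by the authors, 1 file per library in the format of HTSeq, as whole numbers that are not normalized. The submitters' processing notes name the mm10 build and the tools HTSeq, TopHat2 2.0.10, TopHat, Bowtie2, edgeR and DESeq. What each tool did, and whether counting used strand, is not given in the sources used here. Per the labels' protocols, frozen ovaries were extracted with Trizol and polyadenylated RNA was sequenced on Illumina libraries. The 5 summary rows, 9.84 to 17.6% of each file, were left out of totals and tests. Gene totals ran between 1365640 and 36068284 counts, so that 1 count was worth 0.0277 to 0.732 CPM and low genes were imprecise in the shallowest library. No column of per-sample values was left unused (0).

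Groups came from the labels, and each library was taken as 1 mouse. The labels do not tie replicate numbers to a litter or batch, and the p-values measure the spread between these libraries.

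The tests ran in edgeR 4.0.16 under R 4.3.3 (filterByExpr with a minimum count of 10 and a minimum total of 15, TMM, 4 group means, robust quasi-likelihood), which left 16099 genes. The test was also run on simulated counts. These had none of the marker differences between libraries described above, so the run does not show how the test behaves on these libraries. CPM was computed without TMM, and CPM per kilobase divides it by the union of exons in the annotation deposited with the series. None of the 10 genes shares exon bases with another gene there. Marker and pathway lists had 2 genes with no match in the files (Cdhr4 and Hbb-bt), and 3 were matched by older symbols. Promoter windows came from RefSeq. A check of the genotype labels is not reported here.

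The licensing genes, the lists and the alternatives were chosen with earlier results of these data known. All 10 licensing genes are named. From each pathway list the text names genes from up to 4 with the smallest p in either age comparison, plus the fixed Orc1 to Orc6, Mcm8, Mcm9, Mcmdc2, Mki67, E2f1, Dtl and Pcna. The alternatives were RLE and upper quartile scaling, other low-count filters, DESeq2 1.42.0, limma 3.58.1 voom with quality weights, a block for the replicate number, a fit of the groups compared alone, non-robust estimates, libraries left out, the summing of replicates 1 and 4 of the dwarf 22-month group, a covariate for oviduct markers, the removal of Rn45s and Lars2, and an adjusted p under 0.01.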

Additional observations from a re-analysis of the deposited data

Results flagged for a closer look

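In 40 sets of values (10 genes in 4 groups of 5 libraries), 1 library lay farther from its group than the 95% critical value of Dixon's test for 5 samples allows (0.71). Mcm7 was at 86.5 CPM in dwarf 22-month replicate 5, against 63.0 to 67.8 CPM in the other 4 libraries of that group (gap over range 0.795). Chance flags about 1 in 20 such sets. Without this library the log2 change of Mcm7 with age in dwarf mice was -0.81 (edgeR adjusted p = 0.0278).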

How the results depend on the processing

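In dwarf mice 7 licensing genes were called between the ages. Only 2 were called at an adjusted p under 0.01 and 2 with the oviduct score as a covariate. With dwarf 22-month replicates 1 and 4 summed, 4 were called, and 3 to 7 with 1 dwarf library left out. More were called by DESeq2 (8), by limma voom (9), with only the groups compared (9) and without the 3 libraries that stood apart (9). In normal mice 3 were called; none (0) was called at an adjusted p under 0.01, with the oviduct covariate or with only the groups compared, 6 were called by DESeq2, 9 by limma voom, 9 without the 3 libraries that stood apart, and 2 to 8 with 1 normal library left out. Between the genotypes none (0) was called, except 1 by limma voom at 22 months and 1 without the 3 libraries at 6 months. Without the libraries whose titles are numbered 21 to 23, 5 licensing genes were called in dwarf mice and 2 in normal mice. Over all genes, that fit called 1674 in dwarf mice and only 188 in normal mice. The libraries dropped were replicate 5 of the old dwarf and young normal groups and replicate 3 of the old normal group. The cause of these shifts was not tested. No called change reversed. Low counts limit Mcm10, Cdc6 and Gmnn in the shallow libraries. Over all genes, 1086 were called between the ages in normal mice. That count was 1766 with DESeq2, 3859 with limma voom and 4384 without 6-month replicate 2. With any other single normal library left out it was 481 to 1095. It was 4848 without the 3 libraries that stood apart and 112 at an adjusted p under 0.01. With the oviduct covariate it was 2, and with only the groups compared it was 0. In dwarf mice the count over all genes was 1802. It was 2747 with DESeq2, 7519 with limma voom, 5169 with only the groups compared and 4697 without the 3 libraries. With 1 dwarf library left out it was 802 to 1681, and with replicates 1 and 4 summed 1107. With the oviduct covariate it was 373, and at an adjusted p under 0.01 it was 503.

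With the replicate number as a block, 7 licensing genes were called in dwarf mice, 3 in normal mice and 0 between the genotypes or in the interaction, and the 6-month genotype difference of Fzr1 had an edgeR adjusted p of 0.0546. Same-numbered libraries deviated together in at most 3 of 5 pairs of a comparison (correlations -0.22 to 0.72), so the numbers were not taken to pair the mice.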
